A study of Mus musculus with 6 samples.

Results

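The GIMAP genes (GTPases of immunity-associated proteins) are a family of lymphocyte genes, and 8 of them were followed here: Gimap1, Gimap3, Gimap4, Gimap5, Gimap6, Gimap7, Gimap8 and Gimap9. They were found by symbol among the 26469 gene rows of the deposited table, each in 1 row, and all 8 passed the filter on low counts that left 18323 genes for testing. RNA was sequenced from 6 cultures of mouse splenic CD4+ T cells. In the 3 mutant cultures the naive cells came from mice carrying the conditional allele Sf3b1K700E/fl together with Cd4Cre, and they are annotated as Sf3b1 mutation. In the 3 control cultures the cells carried the same conditional allele without Cd4Cre and are annotated as WT. Sf3b1 is a core splicing factor that helps to recognise the branch point, and K700E is its recurrent cancer mutation. The Cd4 promoter drives Cre in developing T cells, so the allele is recombined before the naive cells are collected. All cultures were kept for 36 h with TGFβ at 5 ng/ml, antibodies to CD3 and CD28, and blocking antibodies to IL-4 and IFNγ, a mixture that drives naive cells towards regulatory T cells. The labels give neither strain nor age, nor whether the cultures of a group came from separate mice. A p-value here therefore reflects how far these 3 cultures of a group vary, and some of that variation may be technical.

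GIMAP proteins share a GTP-binding domain related to that of septins, and most sit on intracellular membranes such as the endoplasmic reticulum, mitochondria, Golgi or lysosomes. They are known for the survival of lymphocytes. Loss of Gimap5 removes peripheral T cells in rats and mice, and loss of Gimap1 removes mature T and B cells in mice. Naive T cells express the family strongly, and several members fall after activation through the T cell receptor.

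Totals of the deposited estimated counts ran from 34524433 to 36867313 in mutant and from 33633196 to 43928723 in control libraries. Mutant 1 stood apart within its group. The chi-square per degree of freedom was 139 and 177 in its comparisons with the other mutant libraries, against 50.5 between mutant 2 and mutant 3 and 18.7 to 58.6 among control libraries. The labelled cell type was checked with 6 T cell genes, whose summed level was 1430 to 2110 CPM (counts scaled to a common library size, with totals adjusted by TMM) in mutant and 1340 to 1850 CPM in control libraries. Foxp3, the defining factor of regulatory T cells, was at 230, 118 and 52.3 CPM in mutant 1, 2 and 3 and at 119, 139 and 108 CPM in control 1, 2 and 3. Sf3b1 counts do not show which allele was read and so do not check the genotype. Summed markers of other cells were low but uneven. The 6 B cell markers, all of them tested, reached 4.21 to 41.7 CPM in mutant libraries, highest in mutant 2, against 1.92 to 4.99 CPM in control libraries. Of these 6 genes, edgeR passed 0, DESeq2 passed 1, and 5 had an unadjusted p under 0.05 in edgeR. Of all genes tested 7.62% had such an unadjusted p, and DESeq2 passed 0.64% of the genes given an adjusted p. The 2 CD8 genes reached 6.56 to 17.3 CPM in mutant and 5.81 to 40.4 CPM in control libraries, highest in control 1. NK cell markers summed to at most 6.26 CPM, myeloid markers to at most 5.13 CPM, erythroid markers to at most 1.94 CPM and endothelial markers to at most 0.481 CPM in any library. Their part in the results below was not tested.

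By the reference annotation, which is of an earlier mouse build than the one the submitters name, the 8 members lie side by side on chromosome 6 in the order Gimap8, Gimap9, Gimap4, Gimap6, Gimap7, Gimap1, Gimap5 and Gimap3. Gimap6 and Gimap3 are on the minus strand and the other members on the plus strand. Gimap3 and Gimap5 are close copies, with 90.7% identity over their aligned coding bases. Their longest common coding run is 140 bases, starting at coding base 175 of Gimap3 and base 187 of Gimap5, and it is shown because a read lying wholly within it cannot be assigned to either gene by sequence.

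Gimap3 and Gimap5 shared coding run (GENCODE vM21, chromosome 6, 5′ to 3′): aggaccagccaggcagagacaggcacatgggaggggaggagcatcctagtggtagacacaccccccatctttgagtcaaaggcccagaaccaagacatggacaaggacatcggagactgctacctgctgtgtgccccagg

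Of all 50-base stretches of annotated Gimap3 transcripts, 7.52% also occur in Gimap5, and 4.53% of those of Gimap5 occur in Gimap3. Gimap1 shares 32.4% of its 50-base stretches, on either strand, with Gimap1os, an antisense transcript over the same bases. Gimap4, Gimap6, Gimap8 and Gimap9 share none with any other row of the cluster. Values of Gimap3, Gimap5 and Gimap1 are therefore uncertain to the extent that reads were divided between rows.

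One further row, Gm28053, is annotated as a readthrough, a transcript that runs from one gene into the next. One annotated transcript of this row retains an intron and has an exon of 543 bases that shares no end with an exon of a member. Another joins 5 exons of 95, 48, 98, 49 and 60 bases. The first shares an end with an exon of Gimap7, the third is an exon of Gimap1, the fourth is an exon of Gimap5, and the last shares an end with an exon of Gimap5. The sequences shown give 15 bases on each side of its first 3 junctions, which occur in no annotated transcript of a member and so set the readthrough apart. Capitals mark the downstream exon.

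Gimap7 exon to the 48-base exon: aaggccctgcaggagAGCACATGAACTTCT
48-base exon to Gimap1 exon: gaggtgctaaactcaCTGCAGGAATGAGCA
Gimap1 exon to Gimap5 exon: aggaagacgcctatgAAGAGAATGGAACAC

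No GIMAP member passed the test between mutant and control cells, in either direction. By edgeR's quasi-likelihood test 0 of 8 members had an adjusted p under 0.05 (smallest adjusted p 0.715), and 0 of 18323 genes did (0.0%). At an unadjusted p under 0.05 edgeR had 0 members and 1396 genes (7.62%, with 3.48% lower in mutant), and limma-voom, which also passed 0 genes after adjustment, had 0 members and 1299 genes (7.09%). DESeq2 passed 0 members and 100 genes after adjustment (0.64% of those given an adjusted p), and had 1 member, Gimap7, at an unadjusted p of 0.0472, against 1618 genes with an unadjusted p under 0.05 (6.13%). In none of the 8 members did the mutant and control libraries separate, while the groups did not overlap in 14.1% of all genes tested (6.6% higher and 7.48% lower in mutant). The median log2 fold change of mutant over control was -0.13 over the 8 members, 3 with a higher and 5 with a lower value, and 0.024 over all genes, of which 47.1% were lower in mutant. Without mutant 1 the median of the members was -0.26, and without mutant 3 it was 0.035. No member separated without mutant 2, control 1 or control 3, where 23.2%, 21.7% and 18.3% of all genes did. In bulk RNA a smaller share of expressing cells and less RNA per cell cannot be told apart.

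**Figure D1:**
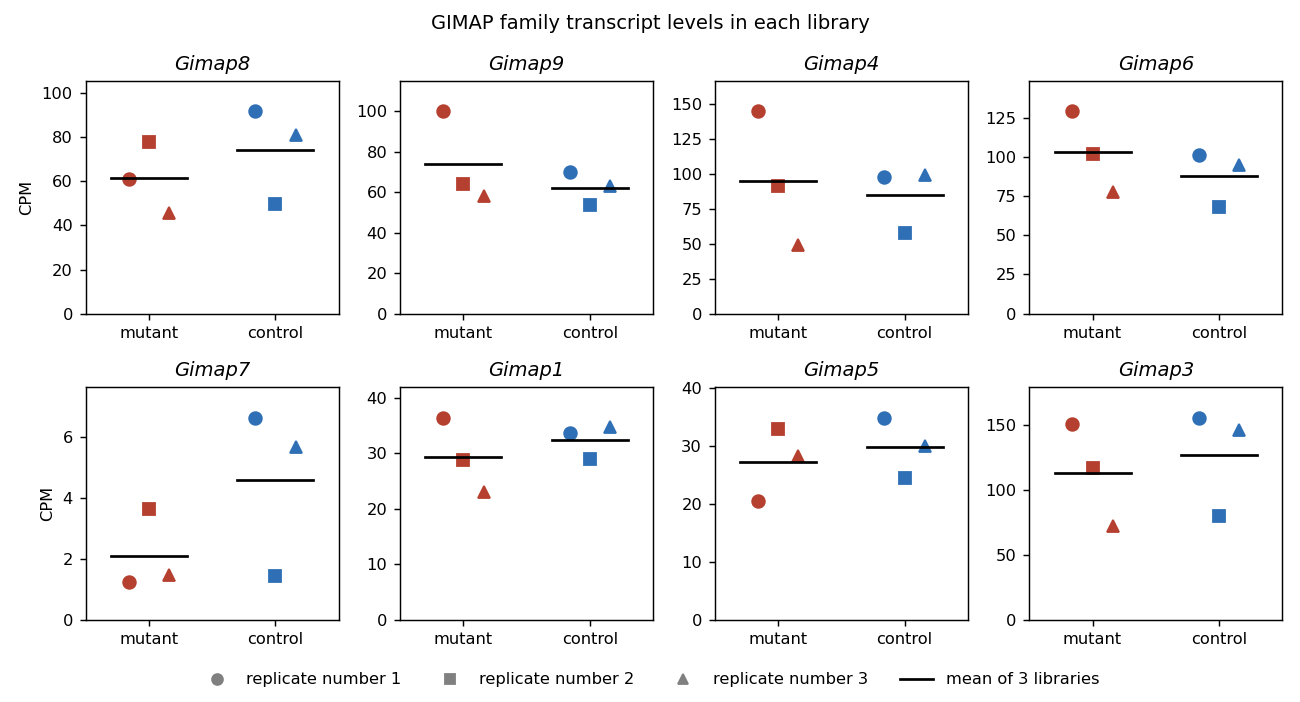
Transcript level (CPM, linear axis from 0) of the 8 members in each of the 6 libraries, mutant left and control right, with symbols by replicate number and bars at the group mean. The groups overlap in every panel. Control 2 is the lowest control library in every member, and mutant 3 is the lowest mutant library in every member except Gimap5 and Gimap7.

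Gimap5, the member best known for keeping naive T cells alive, was at 20.5, 33 and 28.3 CPM in mutant 1, 2 and 3 and at 34.9, 24.4 and 30 CPM in control 1, 2 and 3. Mutant 1 was the lowest of all 6 libraries, and the other mutant libraries lay within the control range. Gimap5 in mutant over control gave a log2 fold change of -0.13 ± 0.22 (SE; 95% interval -0.63 to 0.38; edgeR adjusted p = 0.887), or 0.054 without mutant 1. Gimap3, its close copy, was at 151, 117 and 72.2 CPM in the mutant and at 156, 80.1 and 146 CPM in the control libraries. Gimap3 is known in mice to influence which mitochondrial genomes are kept in blood cells. Mutant 3 and control 2 were low and the other 4 libraries higher, so both groups held both levels. Gimap3 gave -0.17 ± 0.32 (SE; 95% interval -0.92 to 0.58; edgeR adjusted p = 0.898), and 0.067 without mutant 3. With both genes summed into 1 row the log2 fold change was -0.16 (edgeR adjusted p = 0.885).

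Gimap1, required for mature lymphocytes in mice, was at 36.4, 28.7 and 23.0 CPM in mutant and at 33.6, 29.0 and 34.7 CPM in control libraries. Mutant libraries included the highest and the lowest value of the 6. Its log2 fold change was -0.14 ± 0.19 (SE; 95% interval -0.59 to 0.30; edgeR adjusted p = 0.859). Without mutant 1 both remaining mutant values lay below all control values, at a log2 fold change of -0.31 and adjusted p = 0.647 in edgeR, while groups did not overlap in 24.1% of all genes in that comparison. Without mutant 3 the Gimap1 log2 fold change was 0.0018. The antisense row Gimap1os was at 8.39, 14.4 and 8.88 CPM in mutant and at 20.4, 8.10 and 16.6 CPM in control libraries. Control 1 and control 3 were the highest and control 2 the lowest, so the groups overlapped, and the log2 fold change was -0.51 ± 0.36 (SE; edgeR adjusted p = 0.757). Without control 2 the groups did not overlap in Gimap1os, at -0.81 (edgeR unadjusted p = 0.0302, adjusted p = 0.735). They then also did not overlap in 27.5% of all genes. Without control 1 the log2 fold change of Gimap1os was -0.23. Without a statement that counting used strand, reads from the bases that Gimap1 and Gimap1os share cannot be told apart.

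Gimap4, reported to speed the death of T cells once death has been triggered, was at 145, 91.8 and 48.9 CPM in mutant and at 98.1, 57.5 and 99.3 CPM in control libraries. Its mutant values spanned a 2.96-fold range, against 1.73-fold in control, with mutant 1 highest and mutant 3 lowest of the 6. Mutant over control, Gimap4 gave 0.16 ± 0.38 on the log2 scale (SE; 95% interval -0.72 to 1.05; edgeR adjusted p = 0.915). It gave -0.26 without mutant 1 and -0.057 without control 2. Gimap6, which binds the autophagy protein Gabarapl2, was at 129, 102 and 77.8 CPM in mutant and at 101, 67.8 and 94.5 CPM in control libraries. Mutant 1 was highest and control 2 lowest. Gimap6 gave a log2 fold change of 0.23 ± 0.23 (SE; 95% interval -0.29 to 0.76; edgeR adjusted p = 0.806). This was 0.047 without mutant 1. Without mutant 3 both remaining mutant values lay above all control values, as the groups then also did not overlap in 32.1% of all genes.

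Gimap9, a member whose function is little studied, was at 100, 64.1 and 58.1 CPM in mutant and at 69.9, 53.7 and 62.9 CPM in control libraries. Mutant 1 alone lay outside the control range. Its log2 fold change was 0.25 ± 0.23 (SE; 95% interval -0.27 to 0.77; edgeR adjusted p = 0.792), and -0.013 without mutant 1. Gimap8, the longest member, which carries several GTP-binding domains, was at 61.1, 77.9 and 45.7 CPM in mutant and at 91.7, 49.5 and 81.2 CPM in control libraries. Control 1 and control 3 were above every mutant library and control 2 was below mutant 1 and mutant 2. For Gimap8 the log2 fold change was -0.27 ± 0.27 (SE; 95% interval -0.90 to 0.36; edgeR adjusted p = 0.813). It was -0.49 without control 2, -0.45 without mutant 2, -0.09 without control 1 and -0.097 without mutant 3.

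Gimap7, whose human protein stimulates the GTPase activity of a related GIMAP protein, was the member with the lowest level. It was at 1.24, 3.63 and 1.47 CPM in mutant 1, 2 and 3, from 44, 128 and 54 counts, and at 6.65, 1.45 and 5.67 CPM in control 1, 2 and 3, from 229, 59 and 206 counts. Control 1 and control 3 were high, mutant 2 was between, and control 2 stood with mutant 1 and mutant 3 at the low end. Its log2 fold change of -1.12 ± 0.63 (SE; 95% interval -2.57 to 0.33; edgeR adjusted p = 0.715) was the furthest from 0 among the members. Leaving out single libraries gave -1.74 to -0.76. The edgeR unadjusted p of Gimap7 was 0.0203 without control 2 and 0.033 without mutant 2. It ran from 0.243 to 0.314 without each of the other libraries, and none of these passed adjustment. Without control 2 Gimap7 and Gimap8 were below control in every remaining mutant library (edgeR adjusted p = 0.725 and 0.745), 2 of 8 members against 27.5% of all genes. Exact two-sided permutation tests on the log2 CPM of single members gave p from 0.3 for Gimap7 to 1.0 for Gimap4, where 3 samples against 3 cannot go below 0.1.

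**Figure D2:**
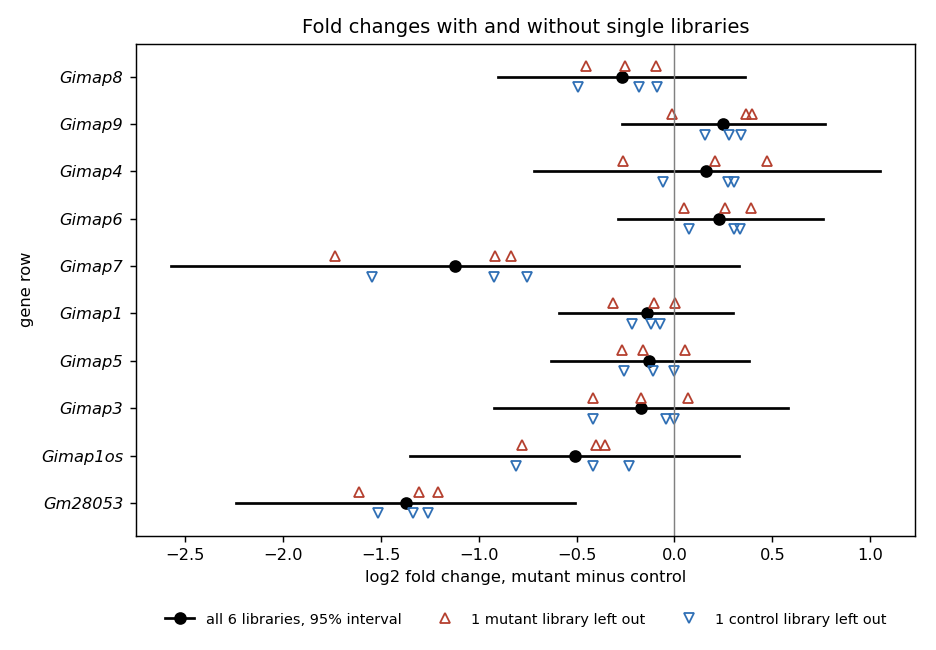
Log2 fold change of mutant over control for the 8 members in chromosomal order and for Gimap1os and Gm28053, with 95% intervals from edgeR (black) and the value after leaving out each mutant (red) or control (blue) library. Every member's interval spans 0, from -2.57 to 0.33 for Gimap7 and from -0.72 to 1.05 for Gimap4, while that of Gm28053 runs from -2.24 to -0.51.

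Libraries of the same group differed in the summed level of the family and in its makeup. Summed over the 8 members, the level was 643, 518 and 356 CPM in mutant 1, 2 and 3 and 592, 363 and 554 CPM in control 1, 2 and 3. Mutant 3 and control 2 formed the low end and the other 4 libraries the high end. The mean log2 deviation from the control mean over the 8 members was 0.03, 0.05 and -0.54 in the mutant and 0.31, -0.50 and 0.19 in the control libraries. In control 2 all 8 members were below their control mean, from -0.16 for Gimap1 to -1.36 for Gimap7. In mutant 3 all 8 were below it too, from -0.06 for Gimap5 to -1.34 for Gimap7. Control 2 was the lowest control library in 42.8% of all genes tested.

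In mutant 1 the members went apart. Gimap4, Gimap9 and Gimap6 deviated by 0.81, 0.69 and 0.58 on the log2 scale, above all other libraries, and Gimap3 and Gimap1 by 0.30 and 0.17. Gimap7, Gimap5 and Gimap8 deviated by -1.57, -0.52 and -0.23, and for Gimap7 and Gimap5 this was the lowest of the 6 libraries. The CPM ratio of Gimap4 to Gimap8 was 2.37, 1.18 and 1.07 in mutant 1, 2 and 3 and 1.07, 1.16 and 1.22 in control 1, 2 and 3. That of Gimap6 to Gimap5 was 6.31, 3.09 and 2.75 in mutant and 2.88, 2.78 and 3.15 in control libraries. Mutant 1 alone was high in these 2 ratios, and the other mutant libraries lay close to control. The ratio of Gimap6 to Gimap8 was 2.11, 1.31 and 1.70 in mutant and 1.10, 1.37 and 1.16 in control libraries. That of Gimap9 to Gimap8 was 1.64, 0.822 and 1.27 in mutant and 0.762, 1.08 and 0.775 in control libraries. In both of these, mutant 1 and mutant 3 were above every control library and mutant 2 was not. The ratio of Gimap3 to Gimap5 was 7.36, 3.55 and 2.55 in mutant and 4.48, 3.29 and 4.86 in control libraries, again with mutant 1 highest. Each of these ratios sets a member above its control mean in mutant 1 over a member below it there. A high ratio in mutant 1 therefore follows from the choice of members.

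**Figure D3:**
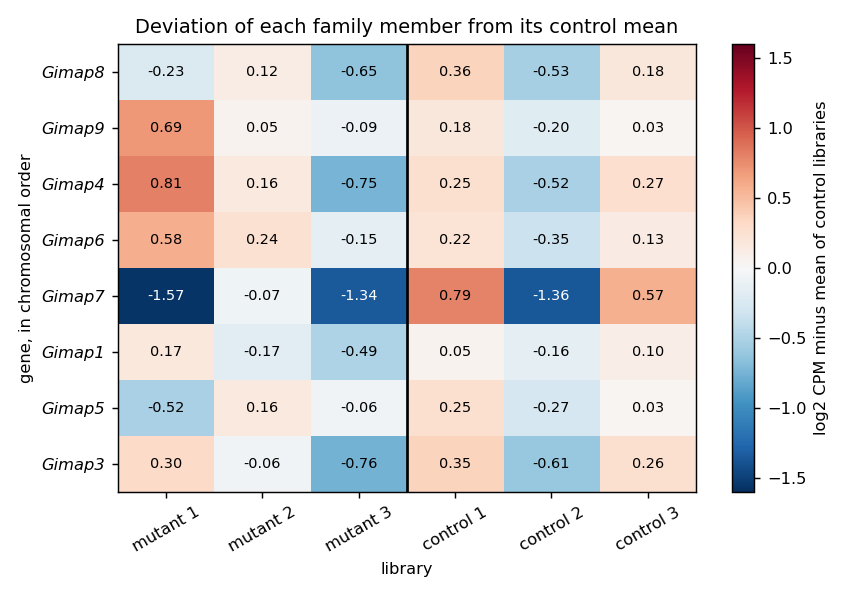
Log2 CPM of each member minus its mean over the control libraries, with members in chromosomal order down the page and libraries across, mutant left of the line. Control 2 and mutant 3 are below 0 in all 8 rows, while mutant 1 holds values from 0.81 for Gimap4 to -1.57 for Gimap7.

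The 3 members highest in mutant 1, Gimap9, Gimap4 and Gimap6, lie side by side on the chromosome. The members on either side of this run, Gimap8 and Gimap7, deviated by -0.23 and -1.57 there. The flanking genes Tmem176b and Tmem176a, membrane proteins of immune cells outside the family, were at 18.8, 21.0 and 24.7 CPM and at 21.3, 21.7 and 23.7 CPM in mutant libraries. In control libraries Tmem176b was at 32.5, 21.0 and 21.1 CPM and Tmem176a at 32.5, 23.0 and 21.2 CPM. Control 1 was the highest library in both flanking genes, and neither gene passed (edgeR adjusted p = 0.813 for Tmem176b and 0.802 for Tmem176a).

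Levels were compared between members per kilobase of exon of their protein-coding transcripts. In the order of the control means Gimap3 and Gimap4 came first, at 44 ± 15.3 and 51.8 ± 26.1 CPM per kilobase in mutant cells and 49.5 ± 16 and 46.3 ± 13 CPM per kilobase in control cells (SD, n = 3 each). Gimap9 followed at 45.1 ± 13.8 in mutant and 37.9 ± 4.95 CPM per kilobase in control cells, then Gimap6 at 32.2 ± 8.03 in mutant and 27.5 ± 5.47 CPM per kilobase in control cells. Gimap8, Gimap1 and Gimap5 formed a lower tier, at 16.6 ± 4.36, 17.2 ± 3.92 and 14.0 ± 3.24 CPM per kilobase in mutant and 20.0 ± 5.94, 18.9 ± 1.76 and 15.2 ± 2.71 CPM per kilobase in control cells. Gimap7 was last, at 1.56 ± 0.97 in mutant and 3.39 ± 2.04 CPM per kilobase in control cells. Ranges over the 6 libraries overlapped between every pair of neighbours in this order except Gimap5 and Gimap7. Within libraries Gimap9 was above Gimap6, and Gimap6 above Gimap8, in 6 of 6, whereas Gimap3 was above Gimap4 in 3 and Gimap8 above Gimap1 in 3.

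The readthrough row Gm28053 had fewer counts in each mutant library than in any control library, without passing the test over all genes. Its estimated counts were 12.9, 11.2 and 18.5 in mutant 1, 2 and 3 and 37.9, 33.5 and 43.5 in control 1, 2 and 3, which sum to 43 and 115. In CPM it was at 0.367, 0.312 and 0.516 in mutant and at 1.10, 0.835 and 1.18 in control libraries. This is a log2 fold change of -1.37 ± 0.37 (SE; 95% interval -2.24 to -0.51). The unadjusted p of 0.0064 did not pass adjustment over all genes in edgeR (adjusted p = 0.598), DESeq2 (0.222) or limma-voom (0.672), and groups were lower in mutant without overlap in 7.48% of all genes. Leaving out any single library gave log2 fold changes from -1.61 to -1.21. The exact two-sided permutation test on its log2 CPM gave p = 0.1, the smallest that 3 against 3 allow.

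Set against the genes whose exons it contains, the readthrough row gave 10.0, 11.1 and 21.9 counts per 1000 Gimap1 counts in mutant 1, 2 and 3. In control 1, 2 and 3 the row gave 32.8, 28.4 and 34.5. Per 1000 Gimap5 counts it gave 17.9, 9.65 and 17.8 in mutant and 31.5, 33.8 and 39.9 in control libraries. The groups did not overlap in either ratio. Per 1000 Gimap7 counts it gave 294, 87.7 and 343 in mutant and 166, 568 and 211 in control libraries, which did overlap, since Gimap7 itself ranged widely. These ratios were chosen after the values were seen. Most of the exons of the transcript described above also belong, whole or in part, to members, so the counts of this row depend on how the counting divided reads.

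**Figure D4:**
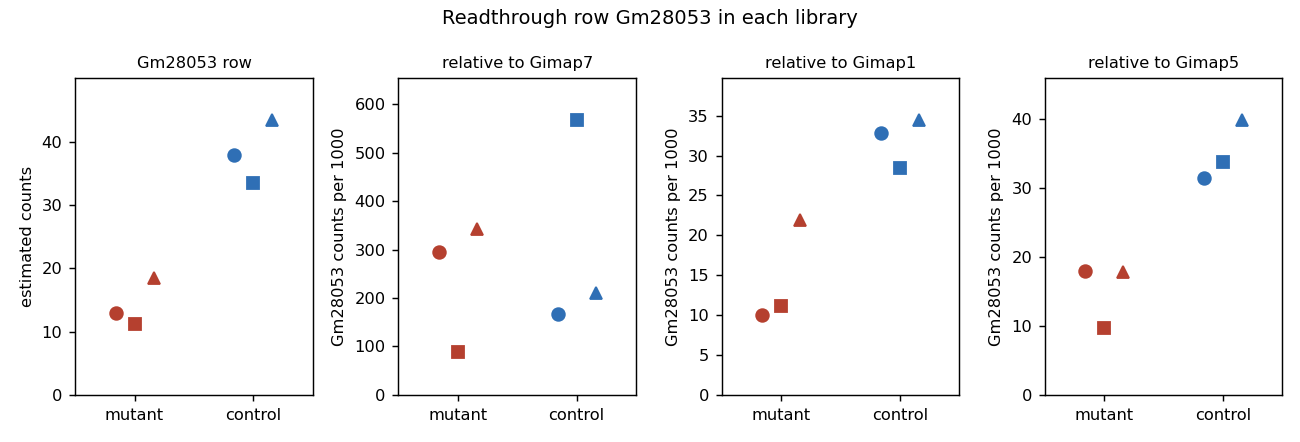
Estimated counts of the readthrough row Gm28053 and its counts per 1000 counts of Gimap7, Gimap1 and Gimap5 in each library, mutant left and control right, with circles, squares and triangles for replicate numbers 1, 2 and 3. All 3 mutant libraries are below all 3 control libraries except in the ratio to Gimap7.

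Because naive T cells are rich in GIMAP transcripts, genes of cell state were read in the same fit. Of 17 tested genes of naive and quiescent T cells, 0 passed edgeR's test in either direction. In mutant cells 16 had a higher value, as did 9684 of all 18323 genes. Of the list 1, Btg2, was higher without overlap, against 6.6% of all genes. At an unadjusted p under 0.05 in edgeR there were 2 of the list, against 7.62% of all genes. DESeq2 passed 1, against 0.64% of the genes given an adjusted p. The list's median log2 fold change was 0.60, against 0.024 over all genes, and -0.046 without mutant 1. Btg2, an antiproliferative factor, was at 185, 122 and 87.3 CPM in mutant and 41.1, 75.5 and 41.7 CPM in control libraries (edgeR adjusted p = 0.598). Slfn2, a quiescence factor, was at 273, 185 and 214 CPM in mutant and 92.4, 200 and 112 CPM in control libraries. S1pr1, the receptor for leaving lymphoid organs, was at 246, 56.6 and 34.0 CPM in mutant and 33.2, 56.3 and 37.5 CPM in control libraries. S1pr1 was high in mutant 1 alone, the library in which Gimap4, Gimap6 and Gimap9 were also highest. Mutant 1 was likewise the highest library for Btg2, Slfn2, Cd3d, Cd3e, Cd3g, Lck and Trac, though not for Cd4. This library stood apart within its group over the genes tested, and the share of all genes highest in it was not taken. A link between these genes was not tested.

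For T cell activation 17 genes were tested. By edgeR 0 passed in either direction and 2 had an unadjusted p under 0.05, against 7.62% of all genes tested. In mutant cells 7 were at higher and 10 at lower levels, while 47.1% of all genes were lower. Without overlap 4 were lower, against 7.48% of all genes. The list's median log2 fold change was -0.048, and 0.20 without mutant 1. Irf4, a transcription factor of activated T cells, was at 575, 723 and 750 CPM in mutant and 1020, 952 and 1050 CPM in control libraries. Slc7a5, an amino acid carrier subunit, was at 125, 257 and 226 CPM in mutant and 434, 334 and 406 CPM in control libraries. Tfrc, the transferrin receptor, was at 662, 1110 and 1250 CPM in mutant and 1390, 1560 and 1390 CPM in control libraries. Mutant 1 was the lowest library for all 3 genes, as it was for Gimap5 and Gimap7, and a link was not tested. This library stood apart within its group over the genes tested, and the share of all genes lowest in it was not taken. Icos, a costimulatory receptor, was at 235, 126 and 123 CPM in mutant and 94.9, 135 and 104 CPM in control libraries.

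**Figure D5:**
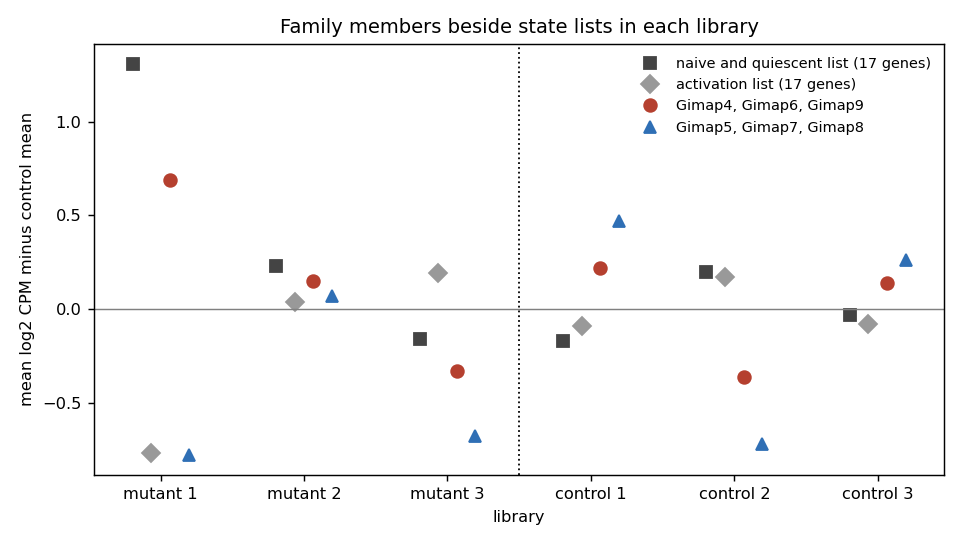
Mean log2 CPM minus the control mean in each library, mutant left of the dotted line, for the naive and activation lists and for the 3 members highest and the 3 lowest in mutant 1, chosen by those values, without Gimap1 and Gimap3. In mutant 1 the naive list and the group of Gimap4, Gimap6 and Gimap9 are high, at 1.31 and 0.69, and the activation list and the group of Gimap5, Gimap7 and Gimap8 low, at -0.77 and -0.78; for the members the choice fixes this.

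Genes that act with the family were read next. GIMAP proteins have been linked to BCL2 family proteins, which set the threshold for cell death at mitochondria. Of 14 tested BCL2 family genes, 0 passed edgeR's test in either direction. An unadjusted p under 0.05 in edgeR was found for 4, against 7.62% of all genes. In mutant cells 12 were at higher levels, as were 9684 of all 18323 genes. Without overlap 2 were higher, against 6.6% of all genes. The list's median log2 fold change was 0.17, and 0.39 without mutant 1. Bcl2l11, which encodes the death activator BIM, was at 113, 38.9 and 41.4 CPM in mutant and 15.8, 31.1 and 27.5 CPM in control libraries (edgeR adjusted p = 0.634). Bcl2a1d, a survival gene of a group of close copies whose reads may be divided, was at 28.7, 34.7 and 27.8 CPM in mutant and 17.6, 27.0 and 20.2 CPM in control libraries. These were the 2 genes whose groups did not overlap. Pmaip1, which encodes NOXA, was at 38.4, 36.5 and 18.5 CPM in mutant and 17.1, 19.1 and 14.5 CPM in control libraries. Mcl1, a survival protein, was at 442, 323 and 260 CPM in mutant and 234, 272 and 225 CPM in control libraries. In both, mutant 3 lay within the control range.

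Of 12 genes of the ATG8 family, autophagy and lysosomes, to which Gimap6 is linked, 0 passed edgeR's test in either direction. In edgeR 0 had an unadjusted p under 0.05, against 7.62% of all genes. In mutant cells 10 were at higher levels, as were 9684 of all 18323 genes. The median log2 fold change was 0.16, and -0.040 without mutant 1. Map1lc3b, an ATG8 protein, was at 115, 59.6 and 42.2 CPM in mutant and 48.6, 54.1 and 50.3 CPM in control libraries. Ulk1, the kinase that starts autophagy, was at 67.8, 28.1 and 22.4 CPM in mutant and 28.6, 27.7 and 27.5 CPM in control libraries. Both were high in mutant 1 and lowest in mutant 3, the order of Gimap4. Of the mutant libraries, mutant 1 was highest and mutant 3 lowest in 24.0% of all genes tested. Lamp1, of the lysosomal membrane, was at 119, 104 and 94.2 CPM in mutant and 81.3, 105 and 87.3 CPM in control libraries. Gabarap was at 112, 74.5 and 58.6 CPM in mutant and 57.1, 81.7 and 63.5 CPM in control libraries.

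Gimap5 has been tied to the kinase GSK3. All 7 genes of that list were at higher levels in mutant cells, as were 9684 of all 18323 genes. By edgeR 0 passed in either direction and 0 had an unadjusted p under 0.05, against 7.62% of all genes. The median log2 fold change was 0.19. Without mutant 1 the count at higher levels was 6 of 7 and the median 0.096. Ctnnb1, which encodes the GSK3 substrate β-catenin, was at 458, 322 and 327 CPM in mutant and 262, 358 and 275 CPM in control libraries. Apc, a scaffold of β-catenin breakdown, was at 167, 166 and 153 CPM in mutant and 147, 134 and 149 CPM in control libraries. Apc was thus higher without overlap, against 6.6% of all genes. Axin1, a second scaffold, was at 99.1, 73.1 and 83.6 CPM in mutant and 74.5, 76.9 and 70.5 CPM in control libraries. The factor gene Nfatc2 was at 212, 128 and 129 CPM in mutant and 129, 138 and 118 CPM in control libraries, high in mutant 1 alone.

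Among 12 tested factors of lymphoid gene control, 0 passed edgeR's test in either direction. An unadjusted p under 0.05 in edgeR was found for 1, against 7.62% of all genes. In mutant cells 8 were higher and 4 lower, while 47.1% of all genes were lower. The list's median log2 fold change was 0.16, and -0.050 without mutant 1. Gata3, a T cell factor, was at 84.0, 132 and 69.2 CPM in mutant and 55.5, 73.0 and 62.5 CPM in control libraries. Klf2, a quiescence factor that drives S1pr1, was at 147, 28.0 and 19.6 CPM in mutant and 14.6, 38.0 and 19.7 CPM in control libraries. Elf1, an ETS factor, was at 220, 171 and 167 CPM in mutant and 150, 177 and 160 CPM in control libraries. Runx3 was at 42.2, 119 and 83.8 CPM in mutant and 126, 103 and 92.3 CPM in control libraries. Runx3 was thus lowest, and Klf2 highest, in mutant 1.

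Binding motifs of such factors were looked for in RefSeq promoter windows of build GRCm38.p6, from 250 bases before to 50 after each start, on both strands. All 8 members had a window, and a gene with several windows was counted once. The ETS letters AGGAAG were in a window of 7 of 8 members, the exception being Gimap6 (for Gimap8 in a further window, not its first), and in 38.4% of all genes with a window. The RUNX letters TGTGGT were in Gimap1, Gimap4 and Gimap7, and in 18.9% of all genes. The FOXO letters GTAAACA were in Gimap3, and in 4.05% of all genes. The KLF letters GGGTGTG and the TCF letters CTTTGAT were in no member's window, and in 9.05% and 4.29% of all genes. None of the motifs overlaps another in the 3 promoters shown here, those of Gimap4 and Gimap6, which were high in mutant 1, and of Gimap7, which was low there. Capitals mark the letters matched on either strand, each run ends at the base before the start, and strands are those of the genes.

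Gimap4 promoter, chr6:48684328-48684577, plus strand: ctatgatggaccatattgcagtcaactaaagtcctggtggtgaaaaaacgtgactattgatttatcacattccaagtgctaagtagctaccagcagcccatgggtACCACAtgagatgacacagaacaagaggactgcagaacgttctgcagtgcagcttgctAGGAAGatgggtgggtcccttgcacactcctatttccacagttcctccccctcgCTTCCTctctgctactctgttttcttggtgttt
Gimap6 promoter, chr6:48708245-48708494, minus strand: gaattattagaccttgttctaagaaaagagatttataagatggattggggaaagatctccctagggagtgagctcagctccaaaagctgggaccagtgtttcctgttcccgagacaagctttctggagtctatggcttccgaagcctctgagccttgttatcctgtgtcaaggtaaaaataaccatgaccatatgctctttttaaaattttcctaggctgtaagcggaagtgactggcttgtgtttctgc
Gimap7 promoter, chr6:48718371-48718620, plus strand: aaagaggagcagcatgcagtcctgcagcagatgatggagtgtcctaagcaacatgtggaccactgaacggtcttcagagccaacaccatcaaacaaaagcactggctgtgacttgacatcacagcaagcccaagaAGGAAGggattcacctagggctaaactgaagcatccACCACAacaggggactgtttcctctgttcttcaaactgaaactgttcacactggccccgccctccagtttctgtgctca

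Of the 5 sets of letters, Gimap4 and Gimap7 each hold those for ETS and RUNX in the windows shown, and Gimap6 holds none. Only these exact letters were searched, so other forms of a factor's site were not counted. The absence of a match in Gimap6 therefore does not show that it lacks a site. Whether the motifs bear on the levels was not tested. A match of letters is not a bound site, and no binding was measured.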

How the data were processed

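The authors deposited 1 table with an estimated count for each gene in each of 6 libraries, before any normalization. Per the submitters' processing notes, the software was Partek with STAR 2.7.8a and the builds were mm39 and GRCm39. The annotation, the role of each tool and whether strand was used are not stated there. Per the labels' protocols, libraries were made from total RNA with ribosomal RNA removed. The deposited estimated counts (63.7% within 0.01 of a whole number) were rounded. Genes were filtered with filterByExpr (minimum count 10), scaled by TMM and tested in R 4.3.3 with edgeR 4.0.16 (quasi-likelihood, robust, two-sided, no covariates, all 6 libraries), with Benjamini-Hochberg adjustment over all 18323 genes and a threshold of 0.05. Standard errors are the absolute log2 fold change over the root of F. Alternatives used DESeq2 1.42.0, limma 3.58.1, other scalings and filters, a replicate block, single libraries left out and summed rows. The test was checked on simulated data. CPM uses TMM-scaled totals, and log2 CPM a prior count of 2. Every pair of libraries within a group differed by more than sampling noise. Lengths and transcripts came from GENCODE vM21 and promoters from RefSeq (GRCm38.p6). Since the builds differ, coordinates are given for the promoter sequences only. The rule for naming took all 8 members, up to 4 genes of each list with the smallest p in edgeR, rows of the cluster, its flanking genes, the 8 genes most like the family, and Foxp3 and Sf3b1 as checks. One gene that this rule names is not reported here. Members and lists were chosen with earlier results of these data known.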

Additional observations from a re-analysis of the deposited data

How the results depend on the processing

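No member was called under any of the 15 alternatives to the edgeR fit. Over all genes the count called was 0 in edgeR and limma-voom under every setting run and 100 in DESeq2, which gave no adjusted p to 10788 genes. The cause was not tested. With upper quartile scaling 1581 genes were higher and 1054 lower in mutant without overlap, against 1210 and 1370 with TMM. Leaving out single libraries called 0 genes and 0 members throughout (0 to 0), put 0 to 2 members without overlap of groups, and moved the median log2 fold change of the members from -0.26 to 0.035. Signs turned only when a library was left out. Gimap4 then ran from -0.26 to 0.47, Gimap9 from -0.013 to 0.40, Gimap5 from -0.27 to 0.054, Gimap1 from -0.31 to 0.0018 and Gimap3 from -0.42 to 0.067. Under the other 9 settings the median ran from -0.15 to -0.10. With Gimap1 and Gimap1os summed, an alternative chosen after seeing the data, the row gave -0.25. The replicate numbers are not said to pair the samples. The deviations of same-numbered libraries had correlations from -0.067 to -0.029, and those of other pairs from -0.0052 to 0.073. Such correlations do not show how the cultures were set up, so whether they were paired is not known. With the replicate block 0 genes and 0 members were called, 991 genes had an unadjusted p under 0.05 and the median of the members was -0.15. Gm28053 was not tested with the filter of 1 CPM in 3 samples, and its low counts limit its precision, as do those of Gimap7.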

Other observations

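The genes outside the family whose log2 CPM followed the mean of the 8 members most closely over the 6 libraries were Chd2, a chromatin remodeller, Mccc1, a subunit of a mitochondrial carboxylase, Vps13c, a lipid transfer protein, Ero1b, an oxidoreductase of the endoplasmic reticulum, Mapk8ip3, a scaffold of JNK signalling, Sdccag8, a centrosomal protein, Lmf1, a lipase maturation factor, and Rsbn1l. They were taken as the 8 of 11297 candidates with the highest Pearson correlation, from 0.98 to 0.991, so the closeness describes the choice and carries no test. Chd2 was at 310, 304 and 237 CPM in mutant 1, 2 and 3 and at 346, 226 and 330 CPM in control 1, 2 and 3. Vps13c was at 70.9, 75.5 and 56.0 CPM in mutant and at 88.0, 53.4 and 84.3 CPM in control libraries. As in the family, mutant 3 and control 2 were low and the other 4 libraries high.

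Between Gimap5 and Gimap3 the annotation places a pair of noncoding rows on opposite strands, named here after their values were seen. Gm44226 was at 3.14, 3.91 and 2.09 CPM in mutant and at 3.14, 3.78 and 3.30 CPM in control libraries. The row 4833403J16Rik was at 2.66, 3.43 and 2.17 CPM in mutant and at 2.85, 3.46 and 3.17 CPM in control libraries. Control 2, the lowest control library for all 8 GIMAP members, was the highest control library in both rows. Their estimated counts were fractional, such as 137.565 and 121.435 in mutant 2, and together made a whole number in each library. Reads thus appear to have been divided between these rows, so they are not separate measurements.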
